A study of Mus musculus with 9 samples.

Results

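Astrocytes of the olfactory bulb (OB) that held Slc6a11 RNA were studied among the cells sorted for green fluorescent protein (GFP) from the OB of mice aged 3, 14 and 24 months. A cell barcode was a member when it had at least 1500 unique molecular identifiers (UMIs, each a count of 1 captured RNA molecule), at most 10% of its UMIs from mitochondrial (mt-) genes, at least 1 UMI of Slc6a11 and at least 1 of Slc1a3. It also had no UMI of Islr, Hs3st3a1, Pdgfra or Dcx. This left 247 of the 2017 OB barcodes, out of 7402 barcodes in all 9 libraries of the study. The members were chosen by measured RNA levels, so the levels of these 6 genes in the members describe the choice and were given no test. Slc6a11 was compared between regions only in barcodes chosen without it.

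All mice were heterozygous Dcx-GFP animals, in which the doublecortin promoter drives GFP, and GFP+ cells were sorted from the OB, the subventricular zone (SVZ) and the dentate gyrus (DG). Each region at each age gave 1 droplet-based 3′ library from the combined cells of several mice. By the study's methods the regions of an age came from the same mice. The labels give 3, 14 and 24 months, whereas the series text gives each age as a range. The sort was meant for young neurons and their progenitors, and members without Dcx UMIs passed it all the same. With 1 library per region and age, ages were compared within the OB as single values, with no test.

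Astrocytes take up transmitters, potassium and water around synapses and are coupled to each other by gap junctions. In the OB most local neurons release GABA, and Slc6a11 encodes GAT-3, a transporter that carries GABA into astrocytes. Slc1a3 encodes the glutamate transporter GLAST, which both astrocytes and neural stem cells use. Islr encodes a secreted protein with leucine-rich repeats and Hs3st3a1 an enzyme that adds sulfate to heparan sulfate.

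At 3, 14 and 24 months the whole OB libraries had 714, 857 and 446 barcodes with totals of 2422674, 3017198 and 1412634 UMIs. Within the limits on depth and mt- UMIs there were 443, 592 and 310 barcodes, and the members were 67, 118 and 62 of them, or 15.1%, 19.9% and 20%. Their median depth was 3143, 3520 and 3536.5 UMIs, with a median of 1359, 1591.5 and 1450 genes per barcode. In sum the members held 224703, 456744 and 242175 UMIs. No member barcode occurred in more than 1 library, and Scrublet called 0, 0 and 4 members as doublets, all of which were kept.

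The absence of Islr and Hs3st3a1 removed most barcodes that met the other conditions. Of the 218, 379 and 215 barcodes that passed before these 2 genes were read, 69.3%, 68.9% and 71.2% held a UMI of at least 1 of them. This share moved with depth. At 3 months it was 47.5% of barcodes between 1500 and 2500 UMIs and 80.5% of those with 4000 or more, and when each barcode was thinned to 1500 UMIs it was 45.9%, 43.8% and 43.7% at the 3 ages.

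Markers of astrocytes were found in most members, and all but 7 of the 247 held Aqp4 or Gja1. Aqp4, the water channel of astrocyte endfeet, was detected in 88.1%, 82.2% and 72.6% of members at 3, 14 and 24 months, with a level of 966, 690 and 541 CPM (the UMIs of a gene over all UMIs of the members in that library, scaled to 1000000). Counts from the 3′ end do not scale with gene length. In barcodes with Dcx and without Slc1a3, which stand for young neurons and whose median depths were 3507, 4054 and 2979 UMIs, the shares with Aqp4 were 1.49%, 2.99% and 0%. After thinning to 1500 UMIs, 67.2%, 66.9% and 45.2% of members held Aqp4. Aldoc, a glycolytic enzyme abundant in astrocytes, was found in 98.5%, 99.2% and 98.4% of members and in 7.46%, 17.9% and 18.5% of the Dcx barcodes. Gja1, the gap junction protein connexin 43, had 1882, 1585 and 1375 CPM. The 24 astrocyte markers together took 122508, 101017 and 102182 CPM, with Cst3 as the most abundant. Neither Aqp4 nor Gja1 was found in 1, 4 and 2 of the members.

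The marker lists of other cell types took far fewer UMIs than the astrocyte list, and several of their genes had no UMI. Higher levels of oligodendrocyte and mature neuron markers that came from a few barcodes are given below. The 10 microglia markers took 134, 96.3 and 53.7 CPM in sum, and Cx3cr1, Csf1r, C1qa, Aif1 and Tmem119 had no UMI. The endothelial markers Cldn5, Flt1 and Cdh5, the ependymal markers Foxj1, Ccdc153 and Tmem212, and Npy, Mybpc1 and Foxd3 of olfactory ensheathing cells also had none. The most abundant ensheathing marker at 3 and 14 months was Fabp7, which astrocytes share. Of 5 mural cell markers Pdgfrb led, at 75.7, 118 and 86.7 CPM, and Vtn, Kcnj8 and Abcc9 had no UMI. The 8 oligodendrocyte progenitor markers took 214, 193 and 343 CPM, led by Olig1, with Cspg4, Gpr17 and Neu4 at 0. The 10 neuroblast markers took 325, 298 and 173, led by Sox11, and the 5 fibroblast markers at most 48.2.

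The 9 oligodendrocyte markers took 369 and 228 CPM at 3 and 14 months and 5273 at 24 months. A single 24-month barcode of 13845 UMIs held 142 UMIs of Mbp, a protein of myelin, and 474 of Apod, and it made up 5.72% of all member UMIs at that age. The 12 mature neuron markers took 107, 539 and 45.4 CPM. At 14 months, 2 barcodes of 13687 and 17445 UMIs held 287 and 319 UMIs of the long noncoding RNA Meg3 and 45 and 36 of Snap25, a protein of synaptic release. Each of these 3 barcodes held 1 UMI of Slc6a11, 1 of Slc1a3 and none of Aqp4 or Gja1. They met the conditions and were counted, and are called the 3 deep barcodes here. Without them the oligodendrocyte markers took 369, 233 and 188 CPM and the mature neuron markers 107, 35.2 and 48.2. Members of 12616 UMIs at 24 months and 10359 at 14 months, which are not among these 3, held 20 and 5 UMIs of Top2a and 5 each of Mki67, both genes of dividing cells, with 1 and 0 UMIs of Aqp4.

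Of the stem cell genes, the proliferation gene Mki67 was found in 1.49%, 0.847% and 3.23% of members, against 4.48%, 4.48% and 3.70% of the Dcx barcodes. Nes had no UMI at 3 months, and Thbs4 was found in at most 4.84% of members. The growth factor receptor Egfr was found in 11.9%, 12.7% and 12.9%. Gfap, the intermediate filament of stem cells and of many astrocytes, was found in 29.9%, 28.0% and 45.2% of members at 178, 120 and 190 CPM.

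Slc6a11 (chromosome 6, 114131241 to 114249952, plus strand, in the GENCODE vM21 annotation of GRCm38) had 1335, 970 and 1532 CPM in the members. The median member held 3, 3 and 4 UMIs of it, and the highest 15, 21 and 31. Members with exactly 1 UMI numbered 8, 29 and 9 and had 603, 449 and 323 CPM of Aqp4, while barcodes with 0 UMIs that met the other conditions numbered 47, 30 and 11 and had 127, 145 and 49.0. Members just above the depth limit, from 1500 to under 2000 UMIs, numbered 13, 11 and 8, and 8, 8 and 5 barcodes from 1000 to under 1500 UMIs were left out. Members of 8% to 10% mt- UMIs numbered 1, 7 and 5, and 10, 12 and 10 barcodes were left out for more than 10%. In the Dcx barcodes Slc6a11 was found in 2.99%, 8.96% and 11.1%.

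The share of Slc6a11-positive barcodes among those that met the other conditions was 58.8% at 3 months (67 of 114, 49.2–67.9%), 79.7% at 14 months (118 of 148, 72.3–85.9%) and 84.9% at 24 months (62 of 73, 74.6–92.2%). The intervals are exact Clopper-Pearson intervals at 95% and, like all intervals given for levels, cover counting error only. Thinned to 1500 UMIs the shares were 49.1%, 55.4% and 68.5%, in the same order. The negative barcodes at 3 months were deep, with a median of 6532 UMIs, and without barcodes that held many UMIs of oligodendrocyte or neuron markers the 3-month share was 77.9%. The cells in the denominator thus differed between the libraries, and their part in the order of the shares was not tested.

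Cyp4f15 (chromosome 17, 32685627 to 32703352, plus strand), a cytochrome P450 of the family that hydroxylates fatty acids and one of several similar paralogs, had 205, 250 and 235 CPM. It was found in 46.3%, 56.8% and 56.5% of members, and in 29.9%, 33.1% and 22.6% after thinning. The counting intervals of the 3 levels overlap. In the Dcx barcodes it had no UMI at 3 and 24 months, which allows up to 10.7 and 33.1 CPM, and 5.93 at 14 months.

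Etnppl (chromosome 3, 130617448 to 130637521, plus strand), which encodes the enzyme that breaks down phosphoethanolamine, had 89.0 CPM at 3 months (54.4–137), 140 at 14 months (108–179) and 429 at 24 months (351–520.3). The 24-month level lay above both others by more than counting error, and the intervals at 3 and 14 months overlap. The RNA was found in 17.9%, 35.6% and 64.5% of members, in 13.4%, 20.3% and 43.5% after thinning, and in 2.99%, 0% and 3.70% of the Dcx barcodes. The plot of the 3 markers by age sets the members beside 2 other groups of OB barcodes.

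**Figure D1:**
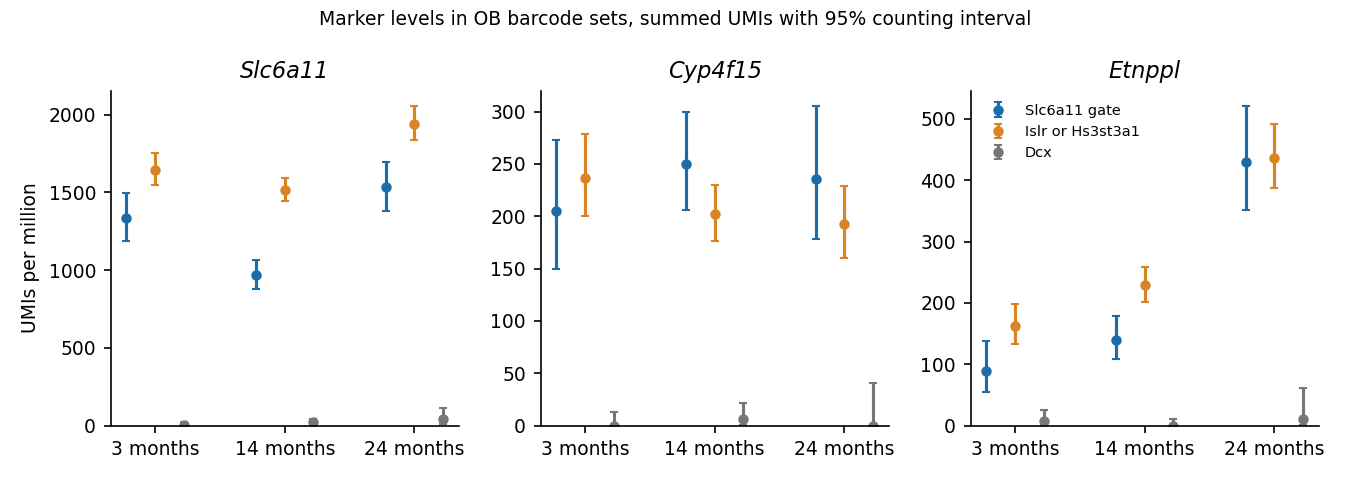
CPM of Slc6a11, Cyp4f15 and Etnppl (y axis, from 0) in summed OB barcodes at 3, 14 and 24 months (x axis): the members (blue), barcodes with Islr or Hs3st3a1 (orange) and barcodes with Dcx (grey), 1 library per age, with bars for the 95% counting interval. Etnppl at 24 months had 429 in the members and 437 in the Islr or Hs3st3a1 barcodes, against 89.0 and 163 at 3 months.

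The closest group in the OB was the set with Islr or Hs3st3a1, which also held Slc1a3 and lacked Pdgfra and Dcx, with 159, 283 and 163 barcodes. All 3 markers were present in it. Slc6a11 was found in 94.97%, 92.2% and 93.9% of these barcodes, at 1646, 1517 and 1942 CPM, above the members at each age. Cyp4f15 had 237, 202 and 192 and Etnppl 163, 229 and 437. Across the 4499 genes with at least 100 UMIs in both sets together, 1 gene was at least 2-fold higher in the members in all 3 libraries, Sox11, and 1 was at least 2-fold lower, 1500015O10Rik, which was named after its values were seen. The log10 levels of both sets had a Pearson's r of 0.965 across these genes, which share libraries and are not independent.

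The members differed far more from the other groups. Against the Dcx barcodes, 391 of 2824 genes were at least 2-fold higher and 551 lower in all 3 libraries, and the r was 0.214. Against barcodes that lacked Slc6a11 but met the other conditions, 96 of 2398 genes were higher and 55 lower. Against all other OB barcodes, 15 of 7417 genes were higher and 316 lower. Of these 1098 barcodes 605 were the Islr or Hs3st3a1 set. The genes whose lowest fold over all other OB barcodes was highest were, in order, Cyr61, Id3, Lhx2, Nrarp and Hes5. Cyr61 encodes a matrix protein and Id3 an inhibitor of basic helix-loop-helix factors. Lhx2 is a homeodomain factor of the forebrain, Nrarp a regulator of Notch signalling and Hes5 a target of Notch. Hes5 had 779, 709 and 710 CPM, against 625, 507 and 467 in the Islr or Hs3st3a1 barcodes. None of these named genes reached 2-fold over the Islr or Hs3st3a1 barcodes at any age, so they are not particular to the members. These contrasts use the genes that chose the members, and no test was applied.

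After the nuclear RNA Malat1, the most abundant transcripts outside mt- and ribosomal protein genes were Cst3, a protease inhibitor, with 39617, 34569 and 41433 CPM, and Apoe, a lipid carrier, with 38491, 26109 and 24098. The metallothioneins Mt1, Mt2 and Mt3 together had 16075, 18109 and 19432. Glul, the enzyme that turns glutamate into glutamine, had 4535, 4723 and 3844, Slc1a3 had 3511, 3203 and 3064, and the second glutamate transporter Slc1a2 had 2247, 2371 and 1710. The 15 genes for potassium, water and gap junctions together had 10356, 9362 and 8634.

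Age was read from log2 ratios of the summed CPM, with 0.5 UMIs added to each sum, wherever both ages together gave a gene 50 or more UMIs. Between 24 and 3 months, 43 of 1349 genes were at least 2-fold higher (3.19%) and 24 at least 2-fold lower (1.78%), and the median log2 ratio was −0.0021. In 19 of these 67 genes more than 25% of the UMIs came from 1 barcode. Apod (6.97), Cldn11 (5.27), Mobp (5.02), Trf (4.46) and Mbp (3.86) were among the highest log2 ratios, and 90.4% to 99.4% of their UMIs came from the 24-month barcode with myelin RNA. Most of them encode proteins of myelin. Without the 3 deep barcodes the ratio of Apod was −2.83 and that of Mbp −0.57, Cldn11 and Mobp had only 1 and 3 UMIs left at both ages together, and 28 genes were higher and 25 lower. Between 14 and 3 months 55 of 2113 genes were higher (2.6%) and 13 lower (0.615%), and between 24 and 14 months 42 of 2153 were higher (1.95%) and 79 lower (3.67%). Of these, 20 of 68 and 41 of 121 were carried by 1 barcode to more than 25%, and without the 3 barcodes the totals were 33 and 69.

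**Figure D2:**
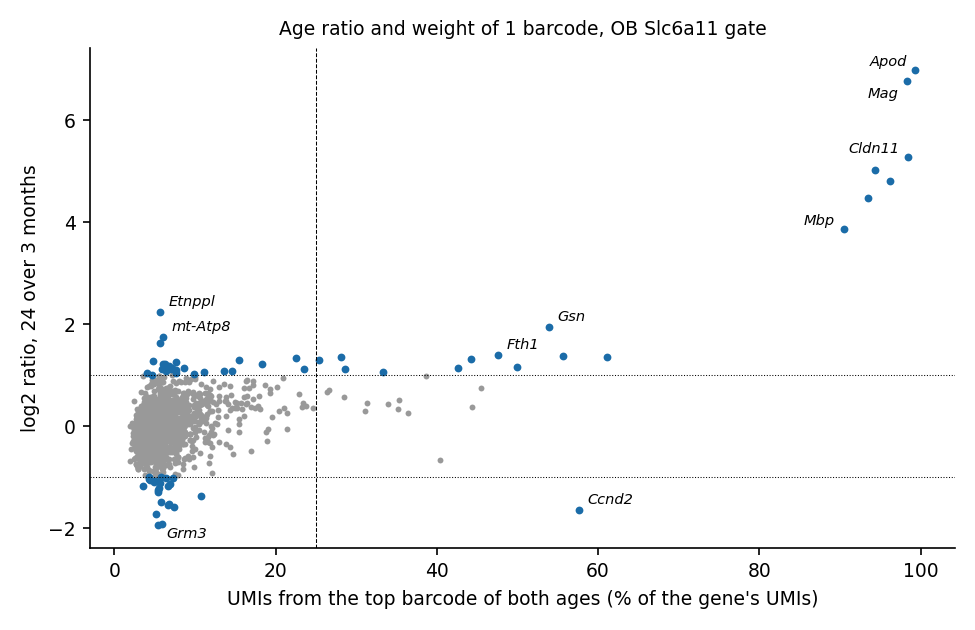
Log2 ratio of 24 over 3 months in the members (y axis) against the percentage of a gene's UMIs that came from its top barcode (x axis), 1 point per gene for 1349 genes, with genes past 2-fold in blue and lines at 2-fold (dotted) and 25% (dashed). Apod, Cldn11, Mobp, Trf and Mbp stand at the right with 90.4% or more, the myelin gene Cnp lies at 55.6%, and Etnppl stands at the left with 5.65%.

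Among genes not carried by 1 barcode to more than 25%, Etnppl had the highest log2 ratio, 2.24 (1.57–3.04), and its top barcode gave 5.65% of its UMIs. The ratio was 1.42 in the Islr or Hs3st3a1 barcodes of the same libraries and 3.27 in DG barcodes chosen by the same conditions. mt-Atp8, a mitochondrial subunit of ATP synthase whose gene overlaps mt-Atp6, had 62.3, 96.3 and 215 CPM and a ratio of 1.75 (0.91–2.75), against 1.70 and 2.19 in these other sets. Gsn, an actin-severing protein, had a ratio of 1.94, of which 53.9% of the UMIs were in 1 barcode.

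Grm3 and Hmgcs1 were among the genes lowest at 24 months. Grm3, a metabotropic glutamate receptor of astrocytes, was measured at 196, 131 and 49.6 CPM, which gives a log2 ratio of −1.94 (−3.04 to −1.04). In the Islr or Hs3st3a1 barcodes it was −0.66, and in the DG barcodes 0.34. Of 6 measured transmitter receptors Grm3 was the one past 2-fold, the median was −0.08, and the AMPA-type glutamate receptor gene Gria2 was at 0.77 (0.52–1.02). Hmgcs1, an early enzyme of cholesterol synthesis, had 205, 190 and 78.5 CPM, with a ratio of −1.36 (−2.24 to −0.58) in the members, −0.54 in the Islr or Hs3st3a1 barcodes and −1.35 in the DG. Slco1c1, a transporter of thyroid hormone, was at −1.54 (−2.38 to −0.81), and Vcam1, a cell adhesion molecule, at −1.52 (−2.36 to −0.78). Emp2, Mtch2, Dner, Efhd2 and Rab24 were also past 2-fold, between −1.92 and −1.28. Ccnd2 was at −1.65, but 57.7% of its UMIs came from 1 barcode.

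The oligodendrocyte and neuron lists are given above with and without the 3 deep barcodes. Over all 1349 genes 3.19% were at least 2-fold higher and 1.78% lower between 24 and 3 months, the background for each list count. Of 16 measured genes for lipids and cholesterol, 2 were past 2-fold lower, Hmgcs1 and Msmo1, none was past 2-fold higher, 13 lay below 0, and the median log2 ratio was −0.53 against −0.0021 over all genes. Msmo1, a later enzyme of sterol synthesis, had 770, 677 and 363 CPM (−1.08, −1.47 to −0.70) and −1.13 in the Islr or Hs3st3a1 barcodes. Apoe was at −0.68 (−0.72 to −0.63), Clu, also a lipid carrier, at −0.75 (−0.87 to −0.63) and the fatty acid binding protein Fabp7 at −0.83 (−1.10 to −0.57). The Islr or Hs3st3a1 barcodes were also lower at 24 than at 3 months, with Apoe at 27367 against 37124 CPM and Fabp7 at 674 against 1685. In the DG, Apoe, Clu and Fabp7 were at 0.05, −0.05 and −0.01. The direction was not shared by the whole list, since Srebf1, a factor that drives lipid synthesis, was at 0.70 (0.10–1.33).

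Of 8 measured genes of transmitter uptake and metabolism, the cystine and glutamate exchanger Slc7a11 alone was past 2-fold, at −1.10 (−1.75 to −0.49), and the median was −0.14. Slc1a2 was at −0.39 (−0.59 to −0.20). Of 23 measured astrocyte markers none was past 2-fold, 15 lay below 0 and the median was −0.24, against −0.0021 over all genes. With 3.19% of all genes past 2-fold higher and 1.78% lower, none among 23 does not set these markers apart. Aqp4 was at −0.83 (−1.16 to −0.52) and Gja1 at −0.45 (−0.66 to −0.24), both outside counting error. The detection of Aqp4 after thinning was also lowest at 24 months, at 45.2% (32.5–58.3%) against 67.2% at 3 months (54.6–78.2%).

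All 6 measured genes for reactive astrocytes and antigen presentation lay above 0, with a median of 0.61, but none was past 2-fold between 24 and 3 months. At the shares past 2-fold over all genes, none among 6 does not set them apart. The course of these 6 genes was not even. The median was −0.35 for 14 over 3 months and 0.83 for 24 over 14 months, where C4b (1.31, 0.76–1.88) and H2-D1 (1.11, 0.41–1.82) were past 2-fold. Between 24 and 3 months the complement gene C4b was at 0.64 (0.06–1.26) and 3.23 in the DG, B2m, the light chain of class I molecules, at 0.87 (0.34–1.43), and Gfap at 0.09 (−0.55 to 0.74). The class I genes H2-D1 and H2-K1, whose copies share sequence, were at 0.52 and 0.64 with intervals that include 0. Serpina3n, Lcn2, C3 and Cd74 had no UMI at any age. Mt1, Mt2 and Mt3 lay at 0.34, 0.26 and 0.18. Ifi27, the single interferon response gene with enough UMIs, had 227, 247 and 487 CPM and a ratio of 1.09 (0.62–1.61). Sparc, a matrix protein, was at 1.07 (0.65–1.52) and fell short of 2-fold without the 3 deep barcodes. Of 17 measured patterning and glial transcription factors none was past 2-fold between 24 and 3 months, near the shares over all genes. Of 20 measured in the other comparisons, Id3 was past 2-fold for 14 over 3 months, at 1.08 (0.56–1.67), and Hopx for 24 over 14 months, at −2.33 (−3.67 to −1.36). Also past 2-fold between other ages were the chloride cotransporter gene Slc12a4 and the oxysterol hydroxylase gene Cyp7b1, at −1.02 and −1.07 for 14 over 3 months, and Slc6a9 and Olig1, at 1.04 and 1.08 for 24 over 14 months. Without the 3 deep barcodes Slc12a4, Slc6a9 and Olig1 fell short of 2-fold, at −0.98, 0.90 and 0.95.

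**Figure D3:**
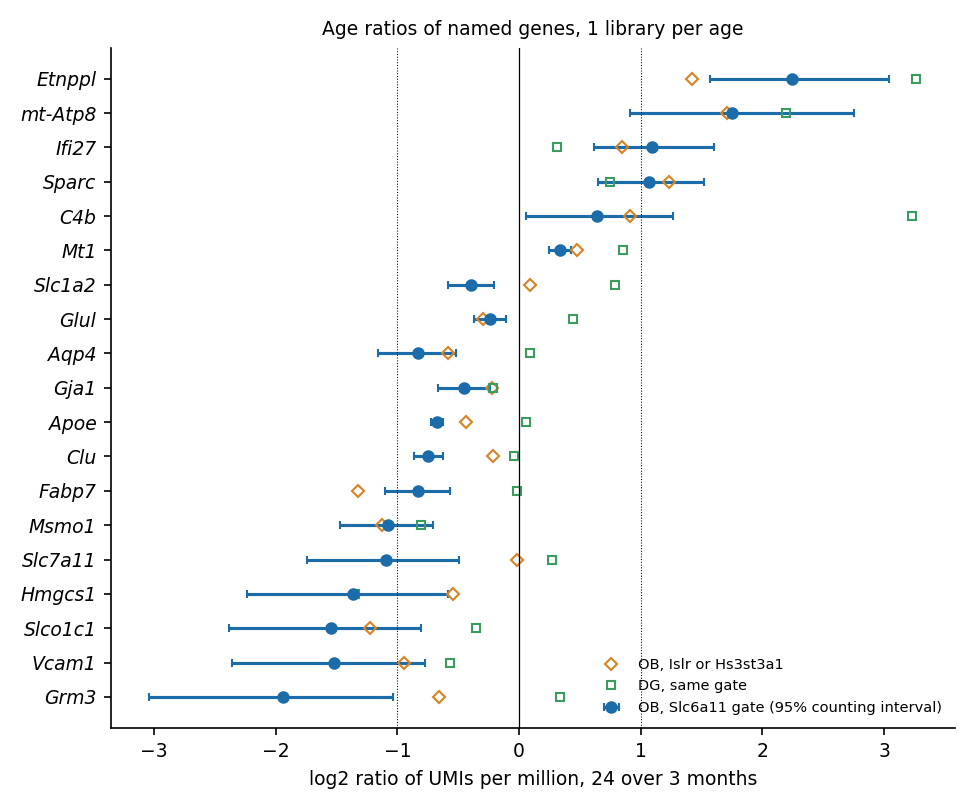
Log2 ratios of 24 over 3 months (x axis) of 19 genes (y axis) in the members, with 95% counting intervals (blue), and in the Islr or Hs3st3a1 barcodes of the OB (open orange) and DG barcodes of the same conditions (open green), with dotted lines at 2-fold and 1 library per age. Etnppl and mt-Atp8 lie past 2-fold in all 3 sets, and Grm3 lies at −1.94 in the members, −0.66 in the Islr or Hs3st3a1 barcodes and 0.34 in the DG, a difference between sets that was not tested.

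The same conditions were applied to the other regions to ask how OB members differ from barcodes elsewhere, which is the one comparison with 3 libraries on each side. The DG gave 182, 145 and 24 barcodes at 3, 14 and 24 months, with median depths of 4150.5, 4204 and 3608 UMIs, and the SVZ gave 26, 19 and 37. The DG barcodes were astrocytes by their markers, with the astrocyte list at 107544, 123940 and 119907 CPM. The SVZ barcodes were not. Egfr, which activated stem cells and progenitors use, was found in 69.2% to 89.5% of them and Aqp4 in 10.5% to 19.2%, and their astrocyte list took 21926 to 27620 CPM, so the DG was the reference used. Xist was found in 26.9%, 35.6% and 29.0% of the OB members and in 19.2%, 37.2% and 79.2% of the DG barcodes, so this marker of female cells was far apart between the regions at 24 months. The fit below takes the libraries of an age as pairs from the same mice. Whether the 24-month libraries of both regions hold the same mix of mice was not tested, nor was the part of Xist in the region differences.

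**Figure D4:**
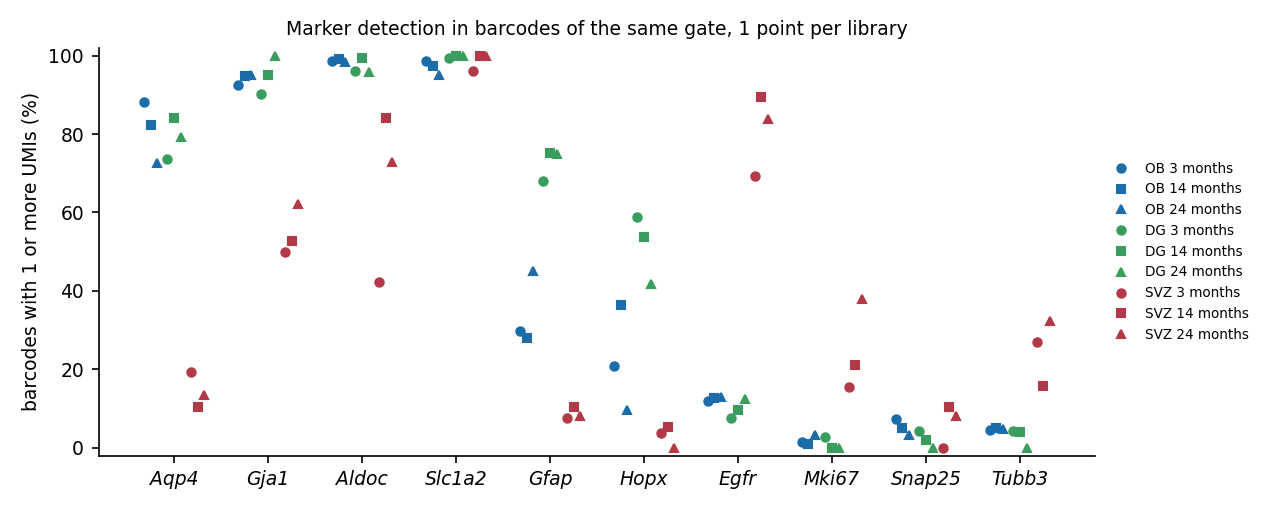
Percentage of barcodes with at least 1 UMI (y axis) of 10 marker genes (x axis) among barcodes chosen by the same conditions in the OB (blue), DG (green) and SVZ (red), 1 point per library, with circles, squares and triangles for 3, 14 and 24 months. The OB and DG points lie together for Aqp4, Gja1, Aldoc and Slc1a2, whereas Egfr is high in the SVZ and Gfap is higher in the DG than in the OB.

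In a quasi-likelihood fit of edgeR over the 9 libraries with region and age as terms, 77 of 4615 genes were higher in the OB than in the DG (1.67%) and 54 were lower (1.17%) at an adjusted p under 0.05. Libraries of this design were also simulated, with an assumed spread that was the same for every gene and regions alike except in the changed genes. There 29.5% of 2-fold and 89.2% of 4-fold changes were found, so most 2-fold changes were missed at that setting. The spread was not estimated from these libraries, so these shares do not give the power in the data themselves. Without the 24-month libraries, of which the DG had 24 barcodes, 79 genes passed in place of 131. Without the 3 deep barcodes 93 genes were higher and 57 lower. Against the SVZ, 1218 genes were higher (26.4%) and 1139 lower (24.7%). Standard errors given with the log2 differences are over the 3 ages and do not come from the fit.

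Of 25 tested patterning and glial factors 7 passed, while over all 4615 genes 1.67% were higher and 1.17% lower in the OB. Meis2 (chromosome 2, 115863064 to 116065839, minus strand), a homeobox gene of the olfactory bulb lineage, had 178, 219 and 182 CPM in the OB against DG levels of 13.4, 19.6 and 20.8, a log2 difference of 3.51 ± 0.26 (n = 3 ages, edgeR adjusted p = 3.45e-07). Every OB library lay above every DG library. Meis2 was found in 40.3% to 49.2% of members and in 80.6% to 100% of the Dcx barcodes of the OB. Among these factors Meis2, Hes5 and Pax6 rose and Nr2f1, Emx2, Id3 and Hopx fell in the OB relative to the DG. Hes5 was higher by 1.59 ± 0.18 (adjusted p = 8.71e-05) and Pax6 by 0.99 ± 0.15 (adjusted p = 0.0161). The calls of Pax6, Emx2, Hopx and Id3 were lost in 5, 3, 3 and 2 of 16 alternative settings, and Pax6 did not pass by DESeq2 (adjusted p = 0.221) or without the age term (adjusted p = 0.0551).

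Nr2f1 (chromosome 13, 78188973 to 78199757, minus strand), a nuclear receptor that patterns the cortex and hippocampus, had 4.45, 8.76 and 8.26 CPM in the OB against DG levels of 121, 108 and 166, a difference of −4.04 ± 0.22 (edgeR adjusted p = 2.31e-06). It overlaps the antisense gene A830082K12Rik (78198017 to 78279391, plus strand), which had a difference of −2.59 (adjusted p = 0.000418). The 3′ ends of both genes, near which this chemistry reads, lie outside the overlap. Emx2, a homeobox gene of the hippocampus, was at −1.54 ± 0.22 and Hopx, a gene of DG stem cells, at −1.46 ± 0.80. For Hopx the 3 ages differed widely, with OB levels of 89.0, 175 and 33.0 CPM against DG levels of 291, 259 and 343.

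Among genes of transmitter uptake Slc6a9 was higher and Slc1a2 lower in the OB. Slc6a9 (chromosome 4, 117834506 to 117875198, plus strand), which encodes the glycine transporter GlyT1, had 147, 94.1 and 194 CPM in the OB against DG levels of 13.4, 11.4 and 10.4, a difference of 3.47 ± 0.20 (edgeR adjusted p = 5.93e-05). It was found in 35.8%, 23.7% and 45.2% of members and in 2.99%, 2.99% and 3.70% of the Dcx barcodes. The glutamate transporter Slc1a2 was lower in the OB, with a difference of −0.77 ± 0.35 (adjusted p = 0.0479), a call lost in 7 of 16 settings, among them the fit without the age term (adjusted p = 0.0529). Gria2, a subunit of AMPA-type glutamate receptors, had 930.1, 1121 and 1586 against 533, 538 and 550.2 (1.11 ± 0.21, adjusted p = 0.00194), and was the only one of 7 tested receptor genes to pass. Among 15 genes for potassium, water and gap junctions the potassium channel Kcnj16 passed (1.33 ± 0.32, adjusted p = 0.0201), but by DESeq2 its adjusted p was 0.655 and the call was lost in 6 of 16 settings.

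Both further markers were higher in the OB. They were chosen as markers with earlier results of these data known, so their p-values are not independent support. Cyp4f15 differed by 1.18 ± 0.22 (edgeR adjusted p = 0.00300; 0.134 by DESeq2) with no overlap between regions. Etnppl differed by 1.496 ± 0.35 (adjusted p = 0.00585, or 0.0991 without the age term), where the 24-month DG library with 176 CPM lay above the OB libraries at 3 and 14 months. Slc6a11 itself was part of the conditions. In barcodes chosen by Aqp4 and Gja1 in its place, without Pdgfra or Dcx, Slc6a11 had 1549, 1428 and 1985 CPM in 206, 342 and 171 OB barcodes and 256, 237 and 284 in 250, 227 and 44 DG barcodes. The mean log2 difference was 2.66 ± 0.07 (SE, n = 3 ages), and a two-sided exact permutation test that exchanged the regions within each age gave p = 0.25, the smallest that 3 pairs of libraries allow. For Cyp4f15 it was 0.92 ± 0.27 and for Etnppl 1.67 ± 0.37, each higher in the OB at all 3 ages, with the same exact p = 0.25.

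Among genes outside the lists, Sez6, which acts in synapse formation, had 16, 24 and 29 UMIs in the OB and none in the DG (edgeR adjusted p = 7.21e-06), which makes it at least 38.1-fold higher against a floor of 3 UMIs over the DG barcodes. Cit, the citron kinase, had 209, 151 and 264 CPM against 10.97, 3.26 and 10.4 (4.57, adjusted p = 4.45e-07). Lmo1, a LIM-only cofactor of transcription, had 165, 118 and 140 against 9.75, 14.7 and 10.4 (3.44, adjusted p = 6.83e-06). At least 1 UMI of Cit was found in 41.8%, 30.5% and 43.5% of members, and of Lmo1 in 28.4%, 28.8% and 27.4%. The shares in other OB barcodes are not given here, so these include any RNA from outside the cells. Shisa9, an auxiliary subunit of AMPA receptors, Pdzph1, 6330403K07Rik and Tshz2 also passed, between 2.81 and 4.42. Meg3 had a difference of 5.17, but 49.7% of its 14-month UMIs came from 1 barcode, and without the 3 deep barcodes it was 2.66 (adjusted p = 0.00287).

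Hsd11b1, Thrsp and Aldh1a1 were among the 10 genes lowest in the OB. None of 25 tested lipid genes passed in that direction, and of all 4615 tested genes 1.17% did. At that share a count of none among 25 does not set the lipid genes apart. Hsd11b1 (chromosome 1, 193221634 to 193264075, minus strand), which makes active glucocorticoid, had 116, 35.0 and 57.8 CPM in the OB against DG levels of 1086, 890 and 882, a difference of −3.89 (edgeR adjusted p = 2.81e-07). Thrsp (chromosome 7, 97412938 to 97417730, minus strand), a regulator of lipid synthesis that responds to thyroid hormone, had 169, 241 and 289 against 1220, 1400 and 1848 (−2.69, adjusted p = 2.81e-07). For both genes every OB library lay below every DG library. Aldh1a1, an enzyme of retinoic acid synthesis, was at −3.11 ± 0.12 (adjusted p = 0.000582), and Gpd1, Hspb8, Cald1, Gm11681 and Lgi1 were between −2.61 and −2.09.

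Over all 4615 tested genes 1.67% were higher and 1.17% lower in the OB, the background for each list count here. Of 23 tested astrocyte markers 2 differed, Slc1a2 and Gfap, both lower in the OB. Gfap had 178, 120 and 190 CPM against 383, 512 and 613 (−1.61 ± 0.29, adjusted p = 0.00454). Aqp4 differed by −0.12 ± 0.30 and Gja1 by 0.22 ± 0.17, neither past the test. Of 10 tested stem cell genes Id3, Hopx and Vim were lower and none was higher, and of 7 tested reactive genes Gfap and Vim were lower. The early-response genes Jund, Fos and Junb were lower among 11 tested, a list that also responds to tissue dissociation, whose part was not tested. Of 18 tested synapse and matrix genes Itih3, Il33, Chrdl1 and Ncan were higher and none was lower. Il33, a cytokine of astrocytes, had 84.6, 92.0 and 94.97 CPM against 6.10, 35.8 and 10.4 (2.24 ± 0.68, adjusted p = 0.00572). Of the 25 lipid genes Srebf1 was higher (0.90 ± 0.22, adjusted p = 0.0363). Of 19 genes of oxidation and detoxification Aldh1a1 was lower, and Cyp4f15 and Etnppl, the markers chosen with earlier results known, were higher. The neuroblast gene Dlx2 had 2, 10 and 5 UMIs in the OB and none in the DG, at least 9.39-fold higher (adjusted p = 0.00896). None of 3 metallothioneins and 8 clock genes passed, which at the shares over all genes does not set these lists apart. Of these list genes, the calls of Slc1a2, Vim, Ncan and Srebf1 were each lost in 7 settings, those of Junb, Jund, Fos and Chrdl1 in 6, 5, 4 and 3, and all 8 were lost by DESeq2.

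**Figure D5:**
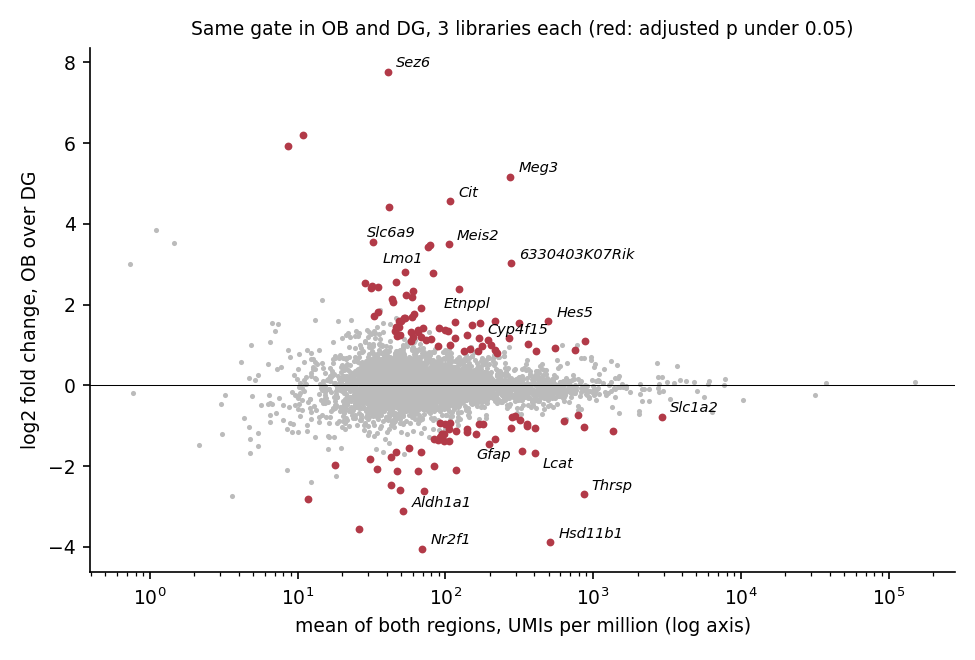
Log2 fold change of OB over DG barcodes chosen by the same conditions (y axis) against the mean of both regions in CPM (x axis, log scale), 1 point per gene, from 3 libraries per region, with edgeR adjusted p under 0.05 in red. Meis2, Slc6a9, Cit and Lmo1 lie above 3 and Nr2f1, Hsd11b1 and Aldh1a1 below −3, and the fold changes of Sez6 and the other 2 genes without DG UMIs depend on the prior count of the fit.

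After thinning to 1500 UMIs the genes with the highest variance over mean included Malat1, Apod, Cst3, Meg3, Snhg11, Trf, Mbp, Apoe and Fth1. Further down the order stood Tmsb4x, Mt1, Ccnd2, Ptma, Stmn1 and H2afz, and the top barcodes gave 17.1%, 8.19%, 17.4% and 14.0% of the UMIs of the last 4. For Apod 96.7% of the thinned UMIs lay in 1 barcode, and for Trf 70.4%. Malat1, Cst3 and Apoe are abundant in nearly all members, and their top barcodes gave 1.07%, 1.24% and 1.03% of the UMIs. Detection of Etnppl and Cyp4f15 was set against that of Gfap in the same members, with each gene read after thinning. Fewer members held Gfap then than before thinning. At 24 months Etnppl was found after thinning in 45.5% of the 22 members with Gfap and in 42.5% of those without, and at 14 months in 27.8% of 18 with and 19% without. At 3 months, 10 members held Gfap after thinning, and Etnppl was found in 10% of them and in 14.0% of the others. Cyp4f15 was found in 60% of the members with Gfap and in 24.6% of those without at 3 months, in 33.3% and 33.0% at 14 months, and in 22.7% and 22.5% at 24 months.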

How the data were processed

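Single-cell libraries of GFP+ cells were sequenced by the authors with the 10x 3′ v2 chemistry, and Cell Ranger 3.0.2 with mm10 gave the deposited values, which are raw UMI counts per gene and barcode. The annotation used for counting is not given in the sources used here. Of 27998 gene identifiers 27722 matched GENCODE vM21. The OB libraries were taken as groups of 1 sample. Per the study's methods the regions of an age came from the same pooled animals, so age was a term of the region fit and pairs the libraries. The members, gene lists and markers were chosen with earlier results of these data known.

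UMIs of members were summed per library. Ages were compared as log2 ratios with exact conditional binomial intervals, and regions with edgeR 4.0.16 (quasi-likelihood, TMM, filterByExpr, Benjamini-Hochberg) in R 4.3.3, with DESeq2 1.42.0 as an alternative. Genes of the conditions were not counted, and some listed genes are not reported here. Thinning drew 1500 UMIs per barcode. Named were the list members, the 20 most abundant and 15 leading genes, the 10 most variable, and the 10 highest and 10 lowest per comparison. Doublets were called with Scrublet in scanpy 1.11.5. Other steps used Python 3.11.15, numpy 2.4.6, scipy 1.17.1, pandas 2.3.3 and matplotlib 3.10.9. Both kinds of comparison were tested on simulated data.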

Additional observations from a re-analysis of the deposited data

Results flagged for a closer look

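Barcodes outside the depth and mt- limits were not used above, and many of them held both Slc6a11 and Slc1a3 UMIs. These were 18.1% of such barcodes at 3 months (49 of 271), 29.4% at 14 months (78 of 265) and 44.9% at 24 months (61 of 136). Their median depth was 1199, 1299.5 and 1228 UMIs and their median mt- share 12.2%, 13.4% and 13.0%. Aqp4 was found in 40.8%, 53.8% and 31.1% of them. Among Dcx barcodes without Slc1a3 outside the limits, Slc6a11 was found in 1 of 57, 1 of 46 and 3 of 18.

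In 2 genes the log2 ratio of 24 over 3 months was past 2-fold in opposite directions in the OB members and in the DG barcodes of the same conditions. Tmsb4x, which encodes an actin-binding peptide, was at 1.34 in the OB members and −1.41 in the DG. Top1, which encodes a topoisomerase, was at 1.13 and −1.01. In the Islr or Hs3st3a1 barcodes of the OB, Tmsb4x was at 0.45 and Top1 at 0.29, both short of 2-fold. Top barcodes gave 22.5% and 23.5% of the OB UMIs of these genes. The difference between the regions was not tested, as each ratio compares single libraries.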

How the results depend on the processing

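The age term paired the libraries of an age across regions, which by the study's methods came from the same mice. Without this replicate block 118 genes differed between OB and DG (74 higher and 44 lower) and 2407 between OB and SVZ, and Etnppl, Jund, Lgi1, Pax6 and Slc1a2 no longer passed. The ages, with 1 library each, have no pairs. Of the OB over DG calls, 131 in the report, DESeq2 gave 49, no filter on low counts 217, a limit of 3000 UMIs 82 and an mt- limit of 5% 52. With Aqp4 required and Sox10, Gpr17, Cspg4 and higher Sox11 excluded, 237 passed, and without the Islr and Hs3st3a1 condition 549. Leaving out 1 age in turn gave 79 to 142 calls. The 10 highest and 10 lowest OB over DG genes and the called list genes that are reported here, 41 in all, gave 644 values under these settings, of which 78 no longer passed and none changed sign. The calls of 17 genes held wherever a value was had, and 24 lost theirs at least once, 15 of them by DESeq2 (Cald1, Chrdl1, Cyp4f15, Emx2, Fos, Gm11681, Hspb8, Junb, Jund, Kcnj16, Ncan, Pax6, Slc1a2, Srebf1 and Vim). Against the SVZ, 4155 genes passed without the Islr and Hs3st3a1 condition, and neither a minimum of 2 Slc6a11 UMIs nor the Aqp4 condition left enough barcodes for a value.

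A minimum of 20 UMIs per gene gave 325, 434 and 522 genes past 2-fold between 24 and 3, 14 and 3, and 24 and 14 months, and a minimum of 100 UMIs 25 (19 higher and 6 lower), 13 and 30. With Aqp4 required the totals were 37 (20 higher and 17 lower), 32 and 47. Without the Islr and Hs3st3a1 condition 116 genes were past 2-fold between 24 and 3 months. With at least 2 Slc6a11 UMIs the 14 over 3 total was 26 and the 24 over 14 total 62. Without barcodes holding Mbp, Syt1, Cx3cr1 or Cldn5 the 14 over 3 total was 33. Without the 3 deep barcodes the totals of these 2 comparisons were 33 and 69.

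The 24 over 3 log2 ratio changed sign for genes carried by 1 barcode. With at least 2 Slc6a11 UMIs, Apod was at −2.35, Cldn11 at −1.61, Trf at −0.47, Mbp at −0.65 and Ccnd2 at 0.77. Without barcodes holding Mbp, Syt1, Cx3cr1 or Cldn5, Apod was at −2.92, Cldn11 at −1.70 and Trf at −0.85. With Aqp4 required they were at −2.51, −1.28 and −0.23, and Mbp at −0.33. Without the 3 deep barcodes they were at −2.83, −1.61 and −0.47, and Mbp at −0.57.

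There were 39 members at 3 months with a limit of 3000 UMIs, 41 at 24 months with Aqp4 required, and 218, 379 and 215 without the Islr and Hs3st3a1 condition. The share with Slc6a11 at 3 months was 81.2% without barcodes holding Mbp, Syt1, Cx3cr1 or Cldn5, 85.5% with Aqp4 required, 79.9% without the Islr and Hs3st3a1 condition, 77.9% without barcodes of many oligodendrocyte or neuron UMIs and 49.1% after thinning. At 14 months it was 60.1% with at least 2 UMIs, 91.1% with Aqp4 required, 87.9% without the Islr and Hs3st3a1 condition and 55.4% after thinning. At 24 months it was 72.6%, 95.3% and 68.5% for the first, the Aqp4 and the thinned settings. The causes were not tested. The settings that required Aqp4, dropped the Islr and Hs3st3a1 condition or left out the deep barcodes were 3 alternatives chosen after seeing the data. With 1 library per age, differences between mice, pools and libraries cannot be told apart from age.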
